A study of Mus musculus with 2 samples.

Results

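The 9 genes described here, Gata4, Gata5, Gata6, Nkx2-5, Hand1, Hand2, Irx4, Isl1 and Shox2, encode transcription factors that pattern and maintain the heart. They were chosen by name, not by their values, from the 43346 gene identifiers of the deposited gene tables. The RNA was that of heart tissue from adult animals of C57BL/6J, a widely used inbred line of mice, aged 8 weeks. There was 1 group of 2 libraries, labelled biological replicates 1 and 2, with separate biosamples and 1 shared donor record. The labels name littermates with males and females pooled, and state no treatment and no engineered allele. Poly(A)-selected RNA longer than 200 nucleotides was sequenced as stranded paired reads of 76 nucleotides. No condition was varied, so the only comparisons were between the genes and between the replicates.

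GATA factors are zinc finger proteins that bind DNA at the sequence GATA, and the heart uses Gata4, Gata5 and Gata6. Nkx2-5 is the cardiac homeodomain factor of the NK2 family and acts together with Gata4 and the T-box protein Tbx5 on genes of the contractile apparatus. Hand1 and Hand2 are basic helix-loop-helix factors that bind E-boxes with E proteins, and in the embryo they mark the developing left and right ventricle. Irx4 is a ventricular homeodomain factor, whereas Isl1 and Shox2 act in progenitors of the venous pole and in the sinus node, the pacemaker of the heart.

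The libraries held 57464573 and 62912053 estimated counts, in the order of replicates 1 and 2, which is also the order of all pairs of values below. They differed in ways that the labels do not name. Xist, transcribed from the inactive X chromosome of females, had 13725 and 13 counts, and the Y-linked gene Ddx3y had 0 and 922, so transcripts of each sex were nearly confined to a different library although the labels name a pool. The summed level of 9 markers of airway and lung epithelium was 0.32 and 2160 TPM (a level per transcript length, with an equal total for both libraries), with Scgb3a2, Sftpb, Sftpa1, Foxa1, Foxa2 and Nkx2-1 at 0 in replicate 1. The summed level of 8 markers of red cells and megakaryocytes was 7612 and 94940 TPM. Of 8 cardiomyocyte markers, 8 reached 1 TPM in each library, and their sums were 25053 and 29637 TPM. The higher sum came from Tnni3, at 4631 and 11030 TPM. Tnnt2 and Actn2 were also higher in TPM in replicate 2, whereas Actc1, Myh6, Pln, Ttn and Ryr2 were lower. The median log2 ratio of scaled counts over the 8 markers, replicate 2 over replicate 1, was -0.25. The ratio between the libraries also rose with the GC content of the genes. This was taken over all annotated transcripts of a gene, so shared exons counted once for each transcript. With the tested genes split by GC content into 10 groups of nearly equal size, its median log2 value (replicate 2 over replicate 1) was -0.46 in the lowest group and 0.46 in the highest.

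Promoter sequences were taken from RefSeq (GRCm38.p6), whose table held 6 of the 9 genes, those of Gata5, Shox2, Hand2, Irx4, Isl1 and Nkx2-5. The 250 bases before the start site are shown for Nkx2-5, Hand2 and Irx4. These were picked because their annotated transcripts had the 3 highest GC contents among the 8 genes tested, and for their high ratios between the libraries. In the Hand2 stretch an RNA that was itself measured also begins. Capitals mark matches, on either strand, to the GATA hexamers (AGATAA or its form AGATAG, and with an initial T, TGATAA or its form TGATAG), the NK2 heptamer TNAAGTG, the E-box CANNTG or the T-box heptamer GGTGTGA. The stretch of Nkx2-5 is chr17:26841566-26841815 (minus strand), that of Hand2 is chr8:57320733-57320982 (plus strand) and that of Irx4 is chr13:73260247-73260496 (plus strand). The Nkx2-5 stretch lies directly before position 26841565, where the only counted transcript of the gene starts. It lies inside the annotated span of the gene, which reaches upstream to position 26845009.
Nkx2-5: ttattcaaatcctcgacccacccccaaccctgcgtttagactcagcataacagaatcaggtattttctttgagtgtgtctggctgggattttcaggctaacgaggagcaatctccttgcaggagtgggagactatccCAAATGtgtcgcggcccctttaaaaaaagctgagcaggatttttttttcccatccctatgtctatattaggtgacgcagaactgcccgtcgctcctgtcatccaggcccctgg
Hand2: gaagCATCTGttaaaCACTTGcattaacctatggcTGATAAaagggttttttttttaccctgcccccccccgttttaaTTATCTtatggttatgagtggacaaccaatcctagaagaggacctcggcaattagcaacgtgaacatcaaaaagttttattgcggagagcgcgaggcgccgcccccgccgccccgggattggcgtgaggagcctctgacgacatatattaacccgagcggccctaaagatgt
Irx4: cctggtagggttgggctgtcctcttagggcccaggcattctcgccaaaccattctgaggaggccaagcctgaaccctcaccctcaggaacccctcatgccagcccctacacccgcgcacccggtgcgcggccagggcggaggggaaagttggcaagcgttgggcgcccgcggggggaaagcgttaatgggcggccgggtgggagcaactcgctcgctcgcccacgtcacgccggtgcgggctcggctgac
The Hand2 stretch held 2 GATA matches, beginning 215 and 172 bases before its start, and 2 E-boxes. Nkx2-5 held 1 E-box, beginning 113 bases before its start, and Irx4 held no match to any of the 4 motifs. No match overlapped one of another motif. Among 32851 promoters of the same length, 26.5% held a GATA match, 10.1% an NK2 match, 66.2% an E-box and 3.33% a T-box match. The GC content of the stretch was 49.2% for both Hand2 and Nkx2-5 and 68.8% for Irx4, beside a median of 52.4% over all promoters.

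Of the 9 factors, 5 (Gata4, Nkx2-5, Gata6, Irx4 and Hand2) were detected, that is, they reached 1 TPM in each library. Shox2, Gata5 and Isl1 were near or below 1 TPM, and Hand1 had 1 count in all. The summed level of the 9 genes was 102 and 152 TPM, of which Gata4 made up 53.6% and 38.0%. In whole heart RNA, fewer cells of a type and less RNA per cell cannot be told apart.

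**Figure D1:**
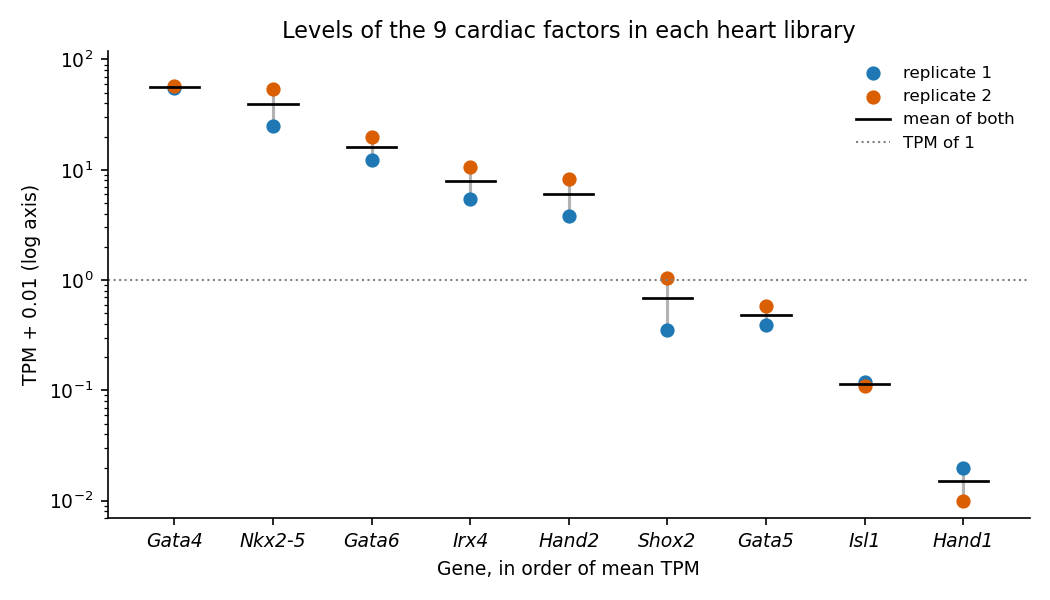
TPM plus 0.01 on a log axis for the 9 factors, with 1 point per library, a bar at the mean of both and a dotted line at a TPM of 1. Gata4, Nkx2-5, Gata6, Irx4 and Hand2 lie above the line in both libraries, Shox2 crosses it (0.34 and 1.03 TPM), and Hand1 lies at the bottom with 0.01 and 0 TPM.

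Gata4 (ENSMUSG00000021944.11, chr14:63198922-63271692 of GRCm38, minus strand), which is needed for the growth of cardiomyocytes and their response to load, had 8381 and 9698 estimated counts. Its level was 54.57 and 57.74 TPM, 56.2 ± 2.24 (SD, n = 2). That was the highest mean of the 9 genes and above 95.6% of 21474 protein-coding genes, with 944 above it. Both libraries gave nearly the same value, and the SD was the smallest relative to the mean among the 5 detected factors. The authors' interval for Gata4 ran from 53.0 to 56.0 TPM in replicate 1 and from 56.2 to 59.0 TPM in replicate 2, at a confidence that the sources used here do not name.

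Gata6 (ENSMUSG00000005836.8, chr18:11052064-11085635, plus strand), which shares cardiac roles with Gata4, had 2270 and 3917 counts and 12.17 and 19.89 TPM, 16.0 ± 5.46 (SD, n = 2). Gata5 (ENSMUSG00000015627.5, chr2:180325133-180334699, minus strand), the member known from endocardium and valve development, had 72 and 115 counts and 0.38 and 0.57 TPM, 0.475 ± 0.134 (SD, n = 2). The 3 cardiac GATA genes thus stood in the same order in both libraries and their ranges did not overlap. Within a library Gata4 exceeded Gata6 4.48-fold and 2.90-fold in TPM, a log2 ratio of 1.85 ± 0.44 (SD, n = 2). Gata6 exceeded Gata5 32.0-fold and 34.9-fold, a log2 ratio of 5.06 ± 0.09 (SD, n = 2). That SD was the smallest of the ratios computed between factors of this set. With only 72 and 115 counts of Gata5 behind it, the small SD does not show that the ratio is steady.

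Nkx2-5 (ENSMUSG00000015579.4, chr17:26838664-26845009, minus strand) had 2067 and 4689 counts and 25.08 and 53.72 TPM, 39.4 ± 20.3 (SD, n = 2). Its level in replicate 2 was just under the lower of the Gata4 values, so the ranges of Gata4 and Nkx2-5 touched closely without overlapping. The authors' intervals of Gata4 in replicate 1 and Nkx2-5 in replicate 2 did overlap in part, at 53.0 to 56.0 and 51.9 to 55.0 TPM. Gata4 exceeded Nkx2-5 2.18-fold in replicate 1 and 1.07-fold in replicate 2, a log2 ratio of 0.61 ± 0.72 (SD, n = 2). The SD was larger than the mean, so the distance between these 2 genes was not resolved by 2 libraries.

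Hand2 (ENSMUSG00000038193.3, chr8:57320983-57324633, plus strand) had 478 and 1105 counts and 3.77 and 8.25 TPM, 6.01 ± 3.17 (SD, n = 2). Hand1 (ENSMUSG00000037335.9, chr11:57828705-57832818, minus strand) had 1 count in replicate 1 and 0 in replicate 2, at or below the floor of 3 counts, so its level was not measurable at this depth. Hand2 therefore held 99.7% and 100% of the summed TPM of the Hand genes. Of the 2 Hand genes, Hand2 alone passed the limit for detection in these adult hearts.

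Irx4 (ENSMUSG00000021604.11, chr13:73260479-73269608, plus strand) had 766 and 1573 counts and 5.47 and 10.49 TPM, 7.98 ± 3.55 (SD, n = 2). Irx4 was above Hand2 within each library, although the ranges of the 2 genes over both libraries overlapped. Ventricular markers were present with it: 5 of 5 (Myl2, Myl3, Hey2, Kcnip2 and Lbh) were detected, with sums of 8616 and 9469 TPM. Atrial markers were present too, with 9 of 9 detected and sums of 3096 and 4916 TPM.

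Shox2 (ENSMUSG00000027833.12, chr3:66971727-66981771, minus strand) had 42 and 88 counts and 0.34 and 1.03 TPM, 0.685 ± 0.488 (SD, n = 2). Isl1 (ENSMUSG00000042258.9, chr13:116298281-116309689, minus strand), a LIM homeodomain factor also found in autonomic neurons, had 13 counts in each library and 0.11 and 0.10 TPM, 0.105 ± 0.00707 (SD, n = 2). Of the 10 sinus node markers, 6 were detected, and the summed level of the 10 was 51.7 and 49.8 TPM. Smoc2 made up most of this sum, at 35.81 and 28.86 TPM. The median log2 ratio of the 10 markers in scaled counts, replicate 2 over replicate 1, was 0.19. Hcn4, the pacemaker channel, stood at 2.79 and 3.80 TPM, and Tbx3, which represses working muscle genes in the node, at 1.69 and 2.42 TPM. Of the 10 markers of cardiac autonomic neurons, 1 (Dbh, at 3.30 and 4.06 TPM) was detected, and their sum was 5.82 and 5.99 TPM. Shox2 and Isl1 were thus below the better expressed markers of the node, and the ranges of Shox2 and Gata5 overlapped. In replicate 1 Gata5 stood above Shox2 and in replicate 2 below it.

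The genes most like Gata4, by Euclidean distance in log2(TPM + 1) over the 2 libraries among protein-coding genes, were Mlip (53.37 and 58.09 TPM, distance 0.0326), Unc45b (55.61 and 56.33 TPM, distance 0.0441) and Mfap5 (54.44 and 59.75 TPM, distance 0.0487). Mlip and Unc45b are known from cardiac muscle, and Mfap5 is a matrix protein of elastic microfibrils. With 2 libraries the distance measures nearness of level, and many genes of this level lie close.

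The relatives of the factors were much lower than the leading cardiac gene in the GATA and NK2 families but not in the Irx family. Of 6 GATA genes, Gata4 held 77.5% and 68.6% of the summed TPM and Gata6 held 17.3% and 23.6%. Gata2, the factor of endothelium and blood progenitors, stood at 3.10 and 5.48 TPM, above Gata5 in both libraries. Gata1, the red cell and megakaryocyte factor, had 10 and 25 counts, and Gata3, a T cell factor, had 22 and 59. Of 7 NK2 genes, Nkx2-5 held 99.8% and 99.3%. Nkx2-2, Nkx2-3, Nkx2-4 and Nkx2-6 had 0 counts in both libraries, Nkx2-9 had 4 and 2, and Nkx2-1, the lung and thyroid factor, had 0 and 48. That last difference moved with the airway and lung markers of replicate 2, and their part in it was not tested.

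Irx4 held 41.8% and 38.1% of the summed TPM of 6 Irx genes. Irx3, which acts in the ventricular conduction system, stood at 3.22 and 8.84 TPM, and Irx5, known from the repolarization gradient across the ventricular wall, at 1.32 and 3.10 TPM. Irx1 stood at 1.49 and 3.05 TPM, Irx2 at 1.58 and 2.03 TPM, and Irx6 had 0 and 3 counts. The other 5 genes together thus exceeded Irx4 in both libraries, at a log2 ratio of Irx4 over their sum of -0.59 ± 0.16 (SD, n = 2).

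**Figure D2:**
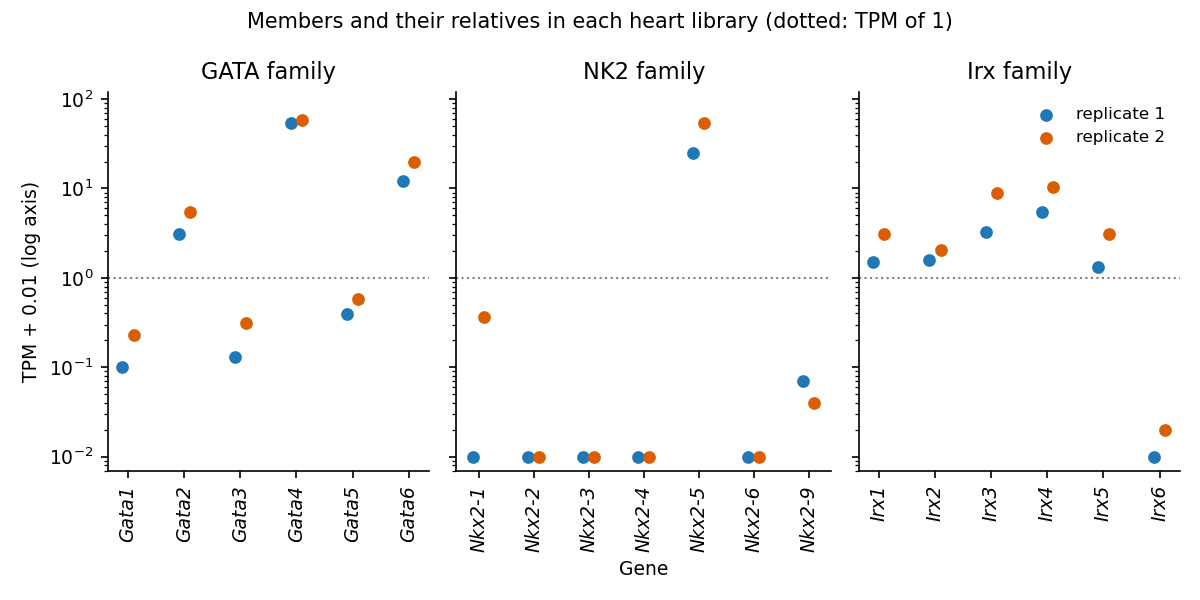
TPM plus 0.01 on a log axis for all genes of the GATA, NK2 and Irx families, with 1 point per library and a dotted line at a TPM of 1. Nkx2-5 is the sole NK2 gene above the line, whereas Irx1, Irx2, Irx3, Irx4 and Irx5 all lie above it.

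The libraries were compared gene by gene with a two-sided exact binomial test on counts scaled by TMM (a trimmed mean that sets a common scale), adjusted by Benjamini-Hochberg over 16145 genes with at least 20 counts over both. The labels do not say whether the replicates came from separate animals, although the sex-linked transcripts given above differ between the libraries. With only 2 libraries, the p-values compare these and no condition, and intervals cover counting error only. At an adjusted p below 0.05 and a fold of at least 2, 1901 genes differed (11.8% of those tested), and 0 of the 8 tested factors did. At an unadjusted p below 0.05, without a fold limit, 6 of the 8 differed, beside 69.9% of all tested genes. At the adjusted p alone 5 did, all higher in replicate 2, beside 67.8% of all tested genes in either direction and 32.9% higher in replicate 2. With libraries scaled by total gene counts, 2 factors, Nkx2-5 and Hand2, were called higher in replicate 2, beside 9.92% of all tested genes. The median log2 ratio of the 8 factors was 0.54 and that of all tested genes -0.01.

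The largest ratio was that of Hand2, which was 1.94-fold higher in replicate 2 (95% interval 1.74 to 2.16, adjusted p = 8.67e-35, exact binomial test). Nkx2-5 was 1.90-fold higher (1.80 to 2.00, adjusted p = 7.5e-138), Irx4 1.72-fold (1.58 to 1.88, adjusted p = 1.87e-35) and Gata6 1.44-fold (1.37 to 1.52, adjusted p = 2.69e-44), by the same exact test. Shox2 was 1.75-fold higher (1.20 to 2.60, adjusted p = 0.00491, exact binomial test), with far fewer counts behind it. The ratios of these 5 genes differed from 1 by more than counting error and lay below the fold limit, which the intervals of Hand2 and Shox2 reach past and that of Nkx2-5 reaches.

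Gata4, Gata5 and Isl1 did not pass the adjusted p. Their ratios of replicate 2 over replicate 1 were 0.969 for Gata4 (95% interval 0.941 to 0.998, adjusted p = 0.0518, exact binomial test), 1.34 for Gata5 (0.988 to 1.82, adjusted p = 0.0856) and 0.837 for Isl1 (0.358 to 1.96, adjusted p = 0.841), by the same exact test. The Gata4 interval is narrow and that of Isl1 spans more than 2-fold in the lower direction, so the counts fix Gata4 far more closely than Isl1. The scaling decided these calls for Gata4 and Gata5. With total gene counts both passed the adjusted p and were higher in replicate 2, Gata4 at 1.06-fold (adjusted p = 3.44e-04, exact binomial test) and Gata5 with an adjusted p of 0.0214. Mitochondrial genes and globins, 48 genes with 47.3% and 40.1% of all TPM, also bear on its level: rescaled without them, Gata4 stood at 107 and 99.4 TPM and its order among the 9 genes was the same.

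**Figure D3:**
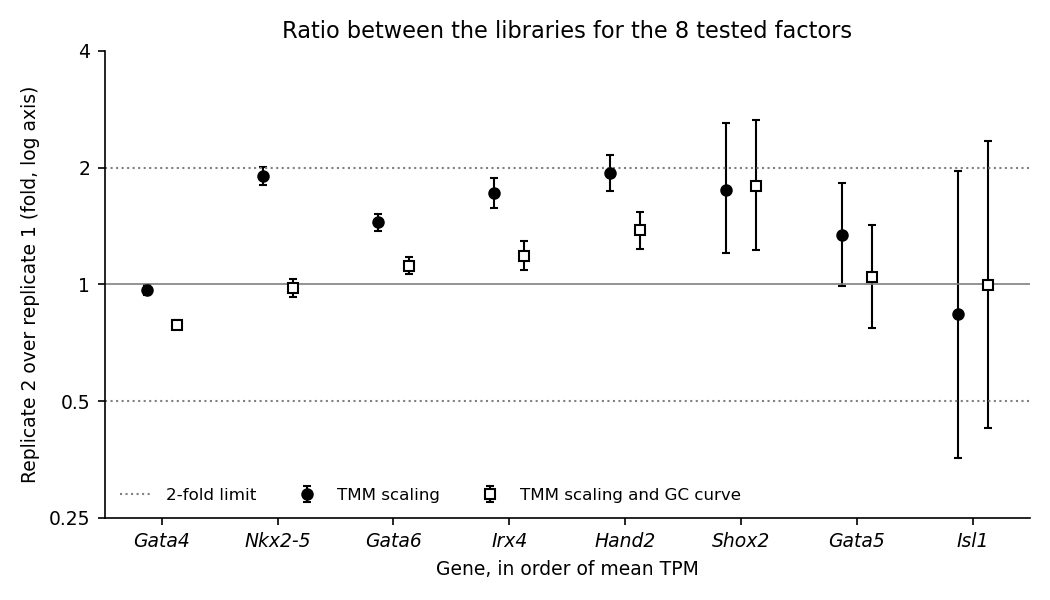
Ratio of replicate 2 over replicate 1 on a log axis for the 8 tested factors, with filled circles after TMM scaling, open squares after an added GC curve, 95% intervals of counting error and dotted lines at the 2-fold limits. Nkx2-5 moves from 1.90 to 0.980, Hand2 from 1.94 to 1.38, and Gata4 from 0.969 to 0.788.

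GC content moved with these ratios. The annotated transcripts of the 8 tested factors had a median GC content of 57.0%, beside 50.4% for all tested genes. Nkx2-5 (67.3%), Irx4 (60.1%) and Hand2 (59.3%) lay in the highest of the 10 GC groups, whose median log2 ratio was 0.46 and of whose genes 16.5% were called higher in replicate 2. Gata4 (56.0%), Gata5 (56.9%) and Gata6 (57.1%) lay in group 9, with a median of 0.31. Gata4 was the exception among these 6 genes, with a log2 ratio of -0.05 in a group with a median above 0.

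After a lowess curve on GC content was subtracted, 1459 genes were called (9.04%) and again 0 of the 8 factors. The median log2 ratio of the factors was then 0.17 and that of all tested genes 0.01. Nkx2-5 stood at 0.980-fold (adjusted p = 0.544, exact binomial test), so its difference was no longer past the adjusted p. Hand2 remained higher in replicate 2 at 1.38-fold (adjusted p = 1.37e-08, exact binomial test), as did Shox2 at 1.79-fold, Irx4 at 1.18-fold and Gata6 at 1.12-fold. Gata4 was then lower in replicate 2, at 0.788-fold (adjusted p = 9.07e-56, exact binomial test). The sex-linked transcripts, the lung and red cell markers and the GC trend all separate the same 2 libraries, so they cannot be told apart.

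**Figure D4:**
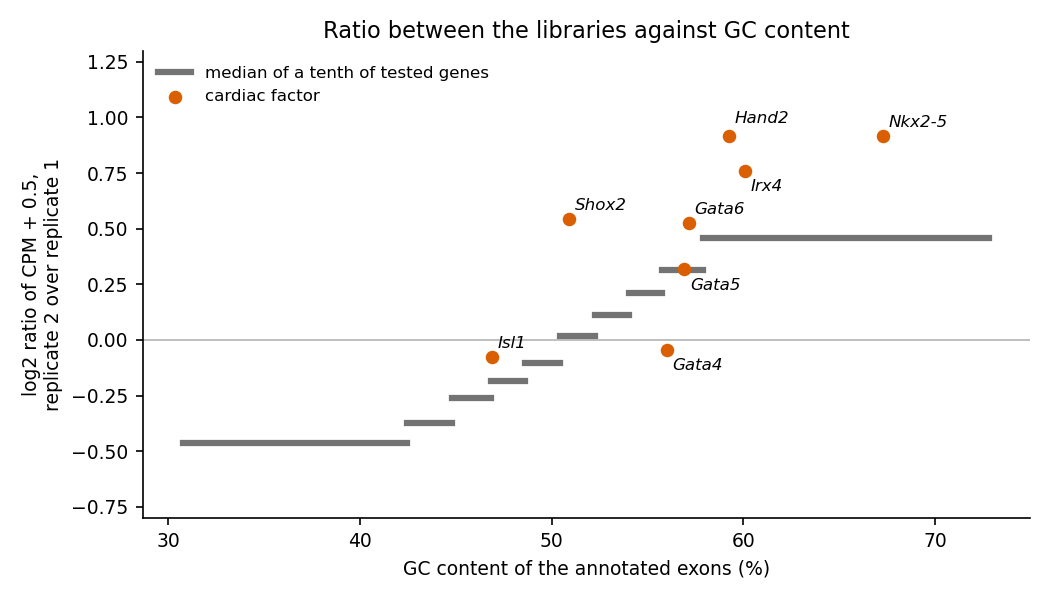
Log2 ratio of CPM (counts scaled to library size) plus 0.5, replicate 2 over replicate 1, against the GC content of the exons. Exons shared by several annotated transcripts count once for each. Grey bars mark the median of each of the 10 GC groups of tested genes, and orange points mark the 8 tested factors. The grey bars climb from -0.46 to 0.46. Nkx2-5, Hand2, Irx4, Gata6, Shox2 and Isl1 lie above the bars at their GC content, Gata5 lies close to its bar and Gata4 lies below. The highest bar spans 57.9% to 72.8% GC, and the lowess curve at the GC content of Nkx2-5 stands at 0.96, above its log2 ratio of 0.92.

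Several factors have more than 1 annotated transcript, and their shares were read from the transcript tables as percent of the TPM of the gene. For Gata4 the leading transcript was Gata4-203, a short form of 2407 nucleotides that starts at an internal site, position 63213607. It held 58.41% and 54.24%, 56.3% ± 2.95 (SD, n = 2), from 4381 and 4549 estimated counts. Its annotated reading frame of 236 codons lies wholly within the 441 codons of Gata4-202 and lacks 205 codons at the start, the stretch in which Gata4 is known to carry its activation domains. The long forms Gata4-202 and Gata4-201, which start at positions 63245248 and 63245271, together held 36.2% and 42.1%, 39.2% ± 4.12 (SD, n = 2). In TPM both libraries thus gave the internal start more than the long forms. Of its 2407 nucleotides, 243 belong to no other annotated transcript, so most reads of this form had to be divided by the authors' estimate. Gata4-204 held 4.78% and 3.07%, and the 2 remaining transcripts together 0.57% and 0.62%. By estimated counts in place of TPM, Gata4-203 held 52.3% in replicate 1 and 46.9% in replicate 2, where Gata4-202 held 36.5% and Gata4-201 15.9%, so that the long forms together were ahead there.

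For Irx4 the transcripts Irx4-202 and Irx4-201 both encode 515 codons and start 18 bases apart, at positions 73260479 and 73260497. Irx4-202 held 67.86% and 54.17%, 61.0% ± 9.68 (SD, n = 2), and Irx4-201 held the rest. Of their bases, 18 belong to Irx4-202 alone and 223 to Irx4-201 alone. The deposited posterior SD of its count was 61.8 in replicate 1, beside 504.52 counts.

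The leading transcript of Shox2 was not the same in both libraries. Shox2-203, with 239 codons in a model whose start is marked incomplete, held 65.11% and 25.09%, whereas Shox2-204, with 190 codons, held 31.56% and 73.65%. The estimated counts behind them were 34.03 and 41.52 for Shox2-203 and 5.92 and 44.02 for Shox2-204. By this estimate Shox2-203 kept a like number of counts, and Shox2-204, which is the shorter with 1081 against 2645 nucleotides, gained. Only 76 bases belong to Shox2-204 alone and 55 to Shox2-203 alone, so most of these few reads had to be divided by the authors' estimate. In replicate 2 the 2 forms were close by estimated counts, at 50.0% for Shox2-204 and 47.2% for Shox2-203. The ratio of Shox2 between the libraries was 3.03-fold in TPM, which divides by the length of the transcripts, and 1.75-fold in scaled counts. Gata5, Gata6, Nkx2-5 and Hand2 each had 1 transcript in the tables.

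**Figure D5:**
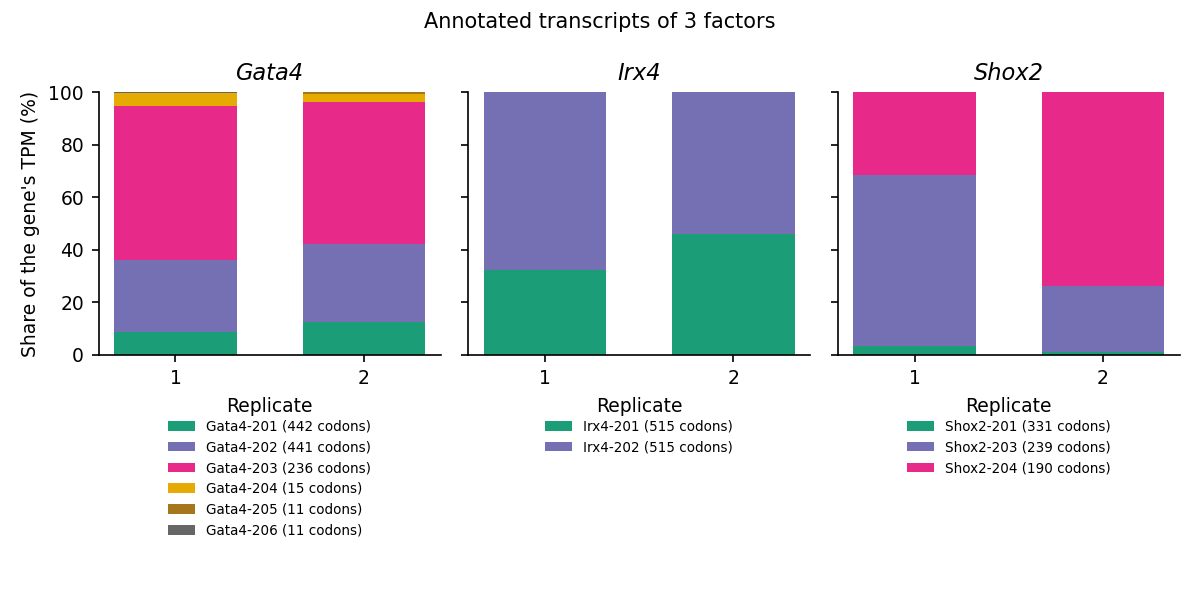
Stacked bars of the share of each annotated transcript in the TPM of Gata4, Irx4 and Shox2, 1 bar per library, with the annotated number of codons in the key. Gata4-203 leads in both libraries (58.41% and 54.24%), whereas the lead passes from Shox2-203 to Shox2-204 between the replicates.

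Genes that overlap a factor or lie within 20 kb of it were read from the same tables. The RNA divergent from Hand2, Hand2os1 (ENSMUSG00000100510.2, chr8:57281117-57324233, minus strand), is a noncoding transcript known to regulate Hand2 in the embryonic heart. It had 885 and 731 counts and 33.01 and 24.26 TPM, 28.6 ± 6.19 (SD, n = 2), and exceeded Hand2 in TPM in both libraries, at a log2 ratio of 2.34 ± 1.11 (SD, n = 2). Its effective length was 430 and 458 nucleotides, shorter than that of Hand2. By estimated counts, not divided by length, Hand2os1 was above Hand2 in replicate 1 (885 against 478) and below it in replicate 2 (731 against 1105). Hand2os1 was 1.45-fold higher in replicate 1 (adjusted p = 6.48e-13, exact binomial test), opposite to Hand2, and was not called. After the GC curve it was 1.08-fold higher in replicate 1 (adjusted p = 0.198, exact binomial test).

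Of the 8 Hand2os1 transcripts in the tables, 5 start inside the Hand2 promoter stretch printed above, between 153 and 248 bases before the Hand2 start, and run away from it. These 5 held 49.1% and 59.5% of the TPM of Hand2os1. The leading Hand2os1-203, which starts at position 57320325, upstream of the stretch, held 46.28% and 36.46%. None of the 8 shares exonic bases with Hand2. The sources used here do not say whether strand was used in counting.

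At Gata6 the overlapping divergent RNA 1010001N08Rik had 110 and 69 counts and was 1.90-fold higher in replicate 1 (adjusted p = 6.18e-05, exact binomial test), opposite to Gata6 and within the fold limit. At Shox2 the overlapping gene Rsrc1, on the other strand, had 250 and 248 counts, and so did not follow Shox2. Near Gata4, the sterol synthesis gene Fdft1 had 1538 and 1692 counts and the repair gene Neil2 had 23 and 34. Near Hand1, Sap30l, a subunit of a histone deacetylase complex, had 388 and 704 counts although Hand1 had 1. Downstream of Hand2, 5033428I22Rik had 28 and 15 counts and was called, 2.23-fold higher in replicate 1 (adjusted p = 0.0242, exact binomial test), and not after the GC curve. Gata5os at Gata5 had 8 and 11 counts, and the 2 RNAs near Nkx2-5, Gm17382 and Gm20468, had at most 7. No neighbour was found for Irx4 or Isl1.

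The partners of the factors were nearly all present. Of 25 co-regulators, 23 were detected. Hopx, a homeodomain protein without DNA binding that acts with Srf, stood at 99.1 and 151 TPM. Mef2d stood at 42.6 and 62.9 TPM, Srf at 38.1 and 52.0 TPM and Mef2a at 36.6 and 34.8 TPM. The median log2 ratio of the 25 was 0.26.

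Of 10 helix-loop-helix partners and inhibitors of the Hand factors, 7 were detected. Calls higher in replicate 2 numbered 3, and there were 0 lower. Id3 and Id1, which block E proteins, stood at 32.2 and 63.5 TPM and at 26.1 and 60.1 TPM, and the E proteins Tcf4 and Tcf12 at 29.26 and 46.02 TPM and at 21.91 and 19.96 TPM. The TPM of Tcf4, which divides by transcript length, rose, but its scaled counts did not. With 3852 and 4353 counts it was 0.946-fold in replicate 2 (adjusted p = 0.0205, exact binomial test). The called genes were Id1 (2.03-fold), Twist2 (62 and 185 counts, 2.50-fold) and Id4 (21 and 83 counts, 3.31-fold), of which Twist2 and Id4 were still called after the GC curve. The inhibitors Id1 and Id3 were thus several times above Hand2 itself in TPM in both libraries.

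Of 8 LIM homeobox and LIM-only genes related to Isl1, 4 were detected and 0 of 5 tested were called, although at the adjusted p alone Ldb1 and Lmo2 were higher in replicate 2. Ldb1, the cofactor that binds LIM domains, stood at 34.6 and 51.2 TPM, Lmo4 at 17.5 and 18.6 TPM, Lmo2 at 6.19 and 10.4 TPM and Ldb2 at 2.41 and 2.80 TPM. Isl2, Lhx2 and Lhx9 had at most 3 counts in a library. Of the 3 other GATA genes 1 was called, Gata3 (2.25-fold). It is itself 1 of the 5 mast and T cell markers, of which Cd3e and Cd3d were also called higher in replicate 2. The other 2 markers, Kit (1.12-fold) and Cpa3 (0.759-fold), were not called. Of the 5 other Irx genes 2 were called, Irx3 (481 and 1395 counts, 2.43-fold) and Irx5 (181 and 449 counts, 2.08-fold), and 0 after the GC curve. The median log2 ratio of the 4 Irx relatives tested was 0.86 before the curve and 0.41 after it.

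Of 22 textbook targets of these factors, 22 were detected, with 2 calls higher in replicate 2 and 0 lower. The most abundant were the sarcomere genes Actc1, at 14525 and 13049 TPM, Tnni3, at 4631 and 11030 TPM, Myl2, at 3900 and 4103 TPM, and Tnnc1, at 2075 and 2570 TPM. The called genes were the atrial light chain Myl7 (2.01-fold) and the stress-responsive Ankrd1 (2.02-fold), and Ankrd1 was still called after the GC curve. The median log2 ratio of the 22 was 0.15, nearer to that of all tested genes than the 0.54 of the factors. Counts for the remaining cell types stood as follows: 7 of 7 endothelial and endocardial markers were detected, with sums of 178 and 186 TPM and 0 called, and 6 of 6 epicardial markers, with sums of 34.7 and 55.5 TPM and 1 called, Krt19. Krt19 was higher in replicate 2, at 2.79 and 14.24 TPM. The other epicardial markers ranged from 1.07-fold (Upk1b) to 1.19-fold (Msln) in scaled counts. Fibroblast markers (6 of 6, sums of 972 and 1032 TPM) held 1 gene called lower in replicate 2, Lum. Smooth muscle and pericyte markers (6 of 6, sums of 504 and 487 TPM) held 1 called higher, Cnn1. Among the autonomic neuron markers, Snap25 (114 and 63 counts) was called lower in replicate 2, and not after the GC curve.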

How the data were processed

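Gene and transcript tables of both libraries were used. The authors used mm10 and GENCODE M4, per the notes deposited beside the tables. The program is not named in the sources used here. Per the file headers, the deposited values include expected counts, an estimate of fragments for each gene and transcript. The deposited TPM and FPKM values scale these by effective length and library, per the file headers. The deposited percent is the share of each transcript in its gene, per the file headers. The deposited posterior SD, interval bounds and effective lengths were used as given.

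Of 43346 gene identifiers, 42462 (98.0%) matched GENCODE M21, the source of symbols, coordinates and GC content; promoters came from RefSeq GRCm38.p6. Spike-ins, 1.65% and 1.72% of counts, stayed out of tests. Counts were rounded, scaled by TMM (edgeR 4.0.16, factors 0.957 and 1.04) and compared with an exact binomial test in scipy 1.17.1, which was tested on simulated data. The GC curve was a lowess fit with a fraction of 0.3 (statsmodels 0.14.6). Alternatives were total-count scaling, DESeq2 1.42.0 size factors, GC correction, other filters, pseudocounts and TPM estimates, and each replicate alone.

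The named genes were all 9 factors. For each list of relatives, partners or targets, up to 4 genes of highest mean TPM and every called gene were named. Marker lists are given as counts and sums, and not every called marker is named. Other relatives and markers were added after their values were seen. The result of 1 list gene is not reported here. The factors and lists were chosen with earlier results of these data known. Lists of contigs and junctions on mm9 name no library and were not used here. Protein sequences were not used here.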

Additional observations from a re-analysis of the deposited data

How the results depend on the processing

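Results were recomputed under 136 alternatives to the values given above, over 29 results. Of these alternatives 113 kept the direction and side of the threshold or moved by less than the spread of the replicates. For levels, ratios and transcript shares, leaving out 1 of 2 replicates always moves the mean by less than their SD. Another pseudocount can change neither the direction of a log2 ratio between the libraries nor its adjusted p. Alternatives of both kinds were thus bound to be counted as kept and say nothing about stability. No factor was called between the libraries in the analysis as reported, with DESeq2 size factors, after GC correction or without a filter on low counts, whereas 2 were called with scaling by total gene counts (beside 9.92% of all tested genes toward replicate 2) and 5 without a fold limit (67.8% in either direction). Detected factors rose from 5 to 8 with a limit of 0.1 TPM. Directions turned for Gata4 with total-count scaling (log2 ratio 0.081) and as a ratio of TPM (0.081), and with GC correction for Gata5 (-0.040), Nkx2-5 (-0.039) and Isl1 (0.18). The pseudocount shrinks these log2 ratios and not the curve: as folds without it, Gata5 (1.04) and Isl1 (0.998) kept their direction and Nkx2-5 (0.980) turned. By estimated counts in place of TPM, the log2 ratio of Gata4 over Nkx2-5 was 1.53, that of Hand2os1 over Hand2 was 0.15, a mean of 1 library in each direction, and the share of Gata4-203 was 49.6%, since counts are not divided by length. Those 2 ratios, and TPM rescaled without mitochondrial genes and globins, which kept all 9 ranks, were alternatives chosen after seeing the data. With either replicate left out, 7 to 9 factors kept their rank and 5 to 6 were detected, and the leading Shox2 transcript changed, with Shox2-204 at 31.6% to 73.7%. Hand2 over Hand1 gave no ratio in replicate 2, where Hand1 had 0 counts. With 13 counts of Isl1 and 1 of Hand1, depth limits both, and an exact two-sided sign test over 2 libraries cannot go below 0.5. No paired analysis was possible because there was 1 group.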
